A study of Mus musculus with 72 samples.

Results

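The 10 genes described here encode inducible transcription factors and 1 related nuclear protein: the nuclear receptors Nr4a1, Nr4a2 and Nr4a3, the AP-1 subunits Fos, Fosb, Jun and Junb, the zinc finger factor Egr1, the ATF family member Atf3, and Ier2. They were chosen by name, as probe sets annotated to these genes in a mouse muscle array series, and all 10 of 10 were measured, each by 1 probe set, among 20239 genes with a symbol. RNA came from 2 leg muscles of 36 mice, the slow soleus (SOL) and the fast tibialis anterior (TA), both taken from each animal. All mice were male, 5 months old and on a C57BL/6 background. The knockouts (mKO) carried floxed Bmal1 and a Cre transgene under the Mlc1f promoter, which is active in muscle fibres, and the controls (Ctrl) were littermates without Cre. Each animal was killed at 1 of 6 Zeitgeber times (ZT), 4 h apart from ZT0 (lights on) through ZT12 (lights off) to ZT20, with 3 animals per genotype and time and 18 per genotype. Because Ctrl had no Cre, the loss of Bmal1 and Cre itself cannot be told apart. Whole muscle holds vessels, connective tissue and nerve beside fibres, and in such samples fewer cells of a type and less RNA per cell cannot be told apart.

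Immediate early genes are transcribed within minutes of a stimulus, without new protein synthesis, and their transcripts decay quickly. In skeletal muscle they respond to contraction, stretch, nerve activity and adrenergic signalling, largely through the transcription factors CREB and SRF on their promoters. The NR4A receptors lack a classical ligand, act mainly through their own abundance, and are known in muscle for inducing genes of glucose and lipid use. Fos and Jun proteins pair to form AP-1, Egr1 links growth signals to transcription, and Atf3 is a stress-inducible factor that can repress or activate with its partners.

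CREB recognises the sequence TGACG, the half-site of the cAMP response element, and the promoters are shown here because this half-site was the motif the members shared. A RefSeq promoter of assembly GRCm38.p6 was at hand for 8 of the 10 members, and the 250 bases before the transcription start were searched on both strands. TGACG or its reverse complement CGTCA stood in 7 of 8, with 4 copies each in Nr4a1, Nr4a2 and Nr4a3, 2 in Fos, 1 each in Fosb, Junb and Atf3 and 0 in Jun, while 17.8% of 32851 promoter windows of the same length held it. Capitals mark TGACG or CGTCA in the following lines, 5′ to 3′ on the gene's strand. They give the whole window for Nr4a1 and Atf3 and, for the others, the 30 bases with the most half-sites. The lines of Nr4a2, Nr4a3 and Fos therefore show only some of their counted copies.
Nr4a1, chr15:101266596-101266845, plus strand: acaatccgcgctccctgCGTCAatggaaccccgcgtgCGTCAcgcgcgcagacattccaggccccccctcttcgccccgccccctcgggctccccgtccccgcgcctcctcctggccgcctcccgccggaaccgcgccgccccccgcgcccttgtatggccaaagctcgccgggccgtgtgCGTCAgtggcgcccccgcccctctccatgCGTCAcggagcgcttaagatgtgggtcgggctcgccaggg
Nr4a2, chr2:57124103-57124132, minus strand: ccgggcTGACGgggccgcTGACGcgcttgg
Nr4a3, chr4:48045083-48045112, plus strand: gtcccatgtCGTCAcatTGACGtctcgcat
Fos, chr12:85473812-85473841, plus strand: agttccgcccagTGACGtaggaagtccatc
Fosb, chr7:19310088-19310117, minus strand: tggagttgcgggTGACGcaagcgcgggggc
Junb, chr8:84978837-84978866, minus strand: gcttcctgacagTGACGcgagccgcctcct
Atf3, chr1:191183334-191183583, minus strand: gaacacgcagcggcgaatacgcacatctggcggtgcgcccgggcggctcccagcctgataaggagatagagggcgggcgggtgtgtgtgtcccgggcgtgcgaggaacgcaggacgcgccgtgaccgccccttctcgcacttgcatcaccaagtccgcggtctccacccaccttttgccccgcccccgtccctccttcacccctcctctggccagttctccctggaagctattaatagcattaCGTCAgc
The full element TGACGTCA, which contains the half-site, stood in 0 of 8 windows against 1.55% of all. The same count of 0 of 8 held for the E-box CACGTG, the site that Bmal1 binds with its partner Clock (6.02% of all windows), and for the AP-1 site TGANTCA (6.75%). It also held for the NR4A site AAAGGTCA, called NBRE (1.34%), the EGR site GCGTGGGCG (0.536%) and the CArG box bound by SRF (1.47%). These matches describe letters in a short window and not binding.

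Values are deposited log2 signals, so a difference of 1 is a doubling, and all differences are mKO minus Ctrl or TA minus SOL. Array medians lay between 6.67 and 6.84. The slow fibre markers averaged 13.17 in SOL and 7.50 in TA of Ctrl (medians over 18 arrays), so the muscles matched their labels. The targeted gene Arntl, which encodes Bmal1, did not differ in mean level past the threshold (limma adjusted p = 0.508 for a difference of 0.09 ± 0.060 in SOL, and 0.465 for -0.07 ± 0.059 in TA). Its daily amplitude was 1.34 in Ctrl and 0.59 in mKO in SOL and 1.09 and 0.33 in TA. The position of its probes relative to the floxed exon was not known, so its level does not check the deletion. Genes of the liver averaged 11.08 on the TA array of Ctrl replicate A at ZT0, and the members' tests in TA and between muscles were repeated without that animal. The next highest averages were 7.79 in TA and 7.43 in SOL, both of Ctrl replicate C at ZT4. Medians over the Ctrl arrays were 5.41 in TA and 5.48 in SOL. The ZT4 animal was kept in the repeat, and the array with liver transcripts means the ZT0 array alone. Animal numbers in the labels fell into 3 series, BM3 (23 animals), BM2* (7) and BM2 (6), of unstated meaning. At ZT20 all mKO animals were BM2 and all Ctrl animals BM3, so genotype and series cannot be told apart at that time. All animals at ZT0 and ZT4 were BM3 and all at ZT12 BM2 or BM2*, so rhythm tests cannot fully separate time from series. At ZT16 all mKO animals were BM3 and most Ctrl animals BM2*. Differences within a series average only the times that held both genotypes. In BM3 these were ZT0, ZT4, ZT8 and ZT16, with a single Ctrl animal at ZT16. In BM2 and BM2* they were ZT8 and ZT12, with a single animal of each genotype at ZT8.

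In SOL, Bmal1 knockout went with lower Nr4a1 and Nr4a3. These were 2 of 10 members past an adjusted p of 0.05, both lower, where 7.1% of all 20239 genes passed (3.56% higher and 3.54% lower). The 8 others, Nr4a2, Fos, Fosb, Jun, Junb, Egr1, Atf3 and Ier2, did not pass. In SOL the mean levels of Ier2 (5.52), Nr4a3 (6.09), Junb (6.41), Fos (6.57) and Fosb (6.58) lay below all array medians. The array processing compresses differences of such dim probe sets. The median difference over the members was -0.03, beside 0.00 over all genes.

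Nr4a1, an orphan receptor induced by muscle activity, ran in SOL from 8.89 to 9.84 in Ctrl with a median of 9.32, and from 8.46 to 9.56 in mKO with a median of 8.89. Its mean differed by -0.39 ± 0.073 (mKO minus Ctrl with SE, 18 animals against 18, adjusted p of limma = 0.000475), 1.31-fold lower. The mean was lower in mKO at 6 of 6 times. At ZT0 the Ctrl animals read 9.84, 9.51 and 9.55 and the mKO animals 9.07, 9.18 and 8.89, so that every mKO animal lay below every Ctrl animal. How often genes in general separate in this way at a single time was not counted, here or below. At ZT12 the ranges overlapped, with 9.24, 9.33 and 9.43 in Ctrl and 9.05, 9.23 and 9.49 in mKO. Within BM3 animals the difference was -0.50. Among BM2 and BM2* animals, fewer in number, it was -0.33, at ZT8 and ZT12 only, with a single animal of each genotype at ZT8.

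Nr4a3, a second NR4A receptor, ran in SOL from 5.54 to 7.22 in Ctrl (median 6.27) and from 5.37 to 7.01 in mKO (median 5.88). It was lower in mKO, with a difference of -0.34 ± 0.084 (limma adjusted p = 0.00771), or 1.26-fold, with lower means at 6 of 6 times. The gap was widest at ZT16, where Ctrl animals read 7.22, 6.33 and 6.34 and mKO animals 5.94, 5.83 and 5.89. All 3 mKO animals were below all 3 Ctrl animals there, though this time alone did not pass (-0.74 ± 0.20, adjusted p = 0.0912). At ZT8 the means were both 5.80. The difference was -0.54 within BM3 animals and -0.21 among BM2 and BM2* animals, the latter at ZT8 and ZT12 only.

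**Figure D1:**
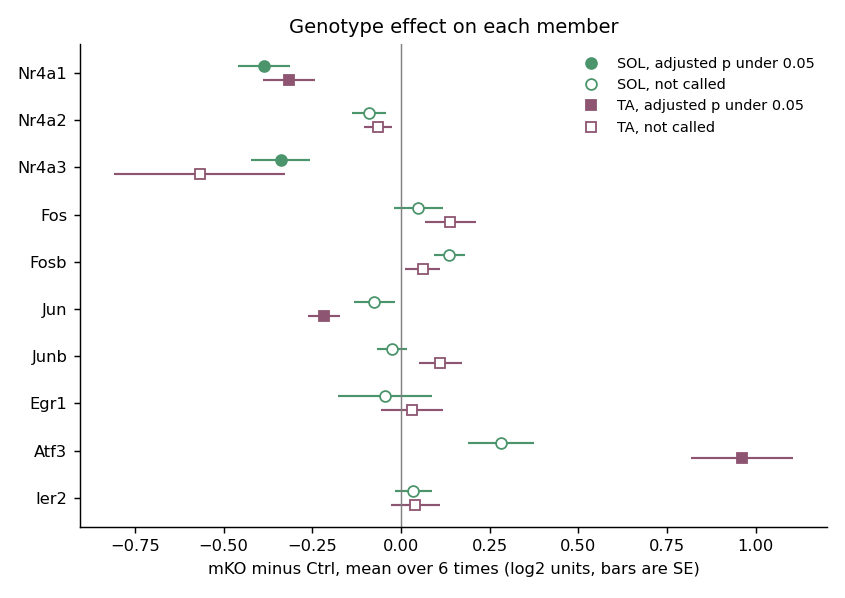
Difference between genotypes (mKO minus Ctrl, log2 units, mean over 6 times) of the 10 members in SOL (circles) and TA (squares). Filled symbols passed an adjusted p of 0.05, bars are standard errors, and n = 18 animals per genotype. Nr4a1 lies below 0 in both muscles, and Atf3 stands at 0.96 in TA.

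Of the members that did not pass in SOL, 2 lay close to the threshold. Fosb, an AP-1 subunit, had 6.51 in Ctrl and 6.65 in mKO (means), a difference of 0.14 ± 0.044 (limma adjusted p = 0.0544). Atf3 had 8.26 and 8.54, a difference of 0.28 ± 0.094 (adjusted p = 0.0692). Leaving out 1 animal at a time brought Fosb past the threshold in 9 of 36 fits and Atf3 in 5 of 36, with values up to 0.15 and 0.33. The third NR4A receptor, Nr4a2, differed by -0.09 ± 0.048 (adjusted p = 0.364). The remaining 5 lay between -0.08 (Jun) and 0.05 (Fos).

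In TA, the knockout went with higher Atf3 and with lower Nr4a1 and Jun. That made 3 of 10 members past the threshold, where 14.8% of all genes passed, 6.76% higher and 8.06% lower. The other members, among them Nr4a3, did not pass. In TA the mean levels of Ier2 (5.56), Junb (6.45), Fos (6.59) and Nr4a2 (6.61) lay below all array medians. The median over the members was 0.04, beside 0.02 over all genes.

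Atf3 ran in TA from 6.77 to 8.85 in Ctrl with a median of 7.49, and from 7.54 to 10.07 in mKO with a median of 8.63. Its mean differed by 0.96 ± 0.14 (SE, 18 animals against 18, adjusted p of limma = 9.97e-06), 1.95-fold higher. Means were higher at 6 of 6 times. At ZT4 the Ctrl animals read 6.77, 7.93 and 7.29 and the mKO animals 8.63, 8.79 and 8.85. At ZT16, the peak of both genotypes, Ctrl animals read 8.76, 7.89 and 8.85 and mKO animals 10.07, 9.19 and 8.38, and there the ranges overlapped. The difference was 0.88 within BM3 animals and 0.58 among BM2 and BM2* animals, the latter at ZT8 and ZT12 only. It was 0.85 without ZT20 and 0.94 without the array that held liver transcripts (limma adjusted p = 2.3e-05).

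Nr4a1 in TA ran from 9.78 to 11.22 in Ctrl (median 10.45) and from 9.64 to 10.88 in mKO (median 10.14). It was lower in mKO, with a difference of -0.32 ± 0.073 (limma adjusted p = 0.0025), or 1.25-fold, at 5 of 6 times. The difference was largest at ZT8 and ZT16. At ZT8 the Ctrl animals read 10.50, 11.12 and 10.75 and the mKO animals 10.13, 10.18 and 9.64. At ZT16 they read 11.22, 10.80 and 11.03 in Ctrl and 10.03, 10.51 and 10.50 in mKO, so that at both times all mKO animals were below all Ctrl animals. At ZT20 the means were 10.01 in Ctrl and 10.05 in mKO. Within BM3 animals the difference was -0.48. Among BM2 and BM2* animals it was -0.58, at ZT8 and ZT12 only, with a single animal of each genotype at ZT8. Without the array with liver transcripts it was -0.32 (limma adjusted p = 0.00348).

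Jun, the AP-1 subunit that pairs with Fos proteins, varied little between animals in TA, from 9.88 to 10.53 in Ctrl (median 10.22) and from 9.65 to 10.33 in mKO (median 10.01). It was lower in mKO, with a difference of -0.22 ± 0.045 (limma adjusted p = 0.000759), or 1.16-fold, at 6 of 6 times. At ZT16 the Ctrl animals read 10.53, 10.49 and 10.53 and the mKO animals 10.08, 10.33 and 10.26. It was -0.23 without the array with liver transcripts (adjusted p = 0.000614) and -0.19 within BM3 animals, where it did not pass (adjusted p = 0.1). Among BM2 and BM2* animals, at ZT8 and ZT12 only, it was -0.30.

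Nr4a3 had the lower mean in mKO at 5 of 6 times in TA, but its animals scattered widely and the difference did not pass (-0.57 ± 0.24, limma adjusted p = 0.121). Its standard deviation within groups, 0.79, was larger than that of 99.8% of all genes in TA, where the median gene had 0.15. Ctrl animals at ZT16 read 9.50, 8.48 and 9.94, and mKO animals 9.52, 7.11 and 6.99. At ZT4, Ctrl animals read 6.23, 8.31 and 8.43 and mKO animals 8.84, 6.75 and 6.76, so that each group held animals about 2 log2 units apart. The order turned at ZT20, with 6.97, 7.29 and 8.04 in Ctrl and 8.42, 8.32 and 7.94 in mKO. Without ZT20 the difference was -0.84 (adjusted p = 0.0518), and it passed in 3 of 36 fits that left out 1 animal, those without Ctrl ZT4 replicate A (-0.69), mKO ZT4 replicate A (-0.68) or mKO ZT16 replicate A (-0.70). Of 10 other alternatives it passed in 1, with array weights (-0.64, adjusted p = 0.0457). Within BM3 animals the difference was -1.12 and among BM2 and BM2* animals, at ZT8 and ZT12 only, -0.46. Without the array with liver transcripts it was -0.61 (adjusted p = 0.11).

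**Figure D2:**
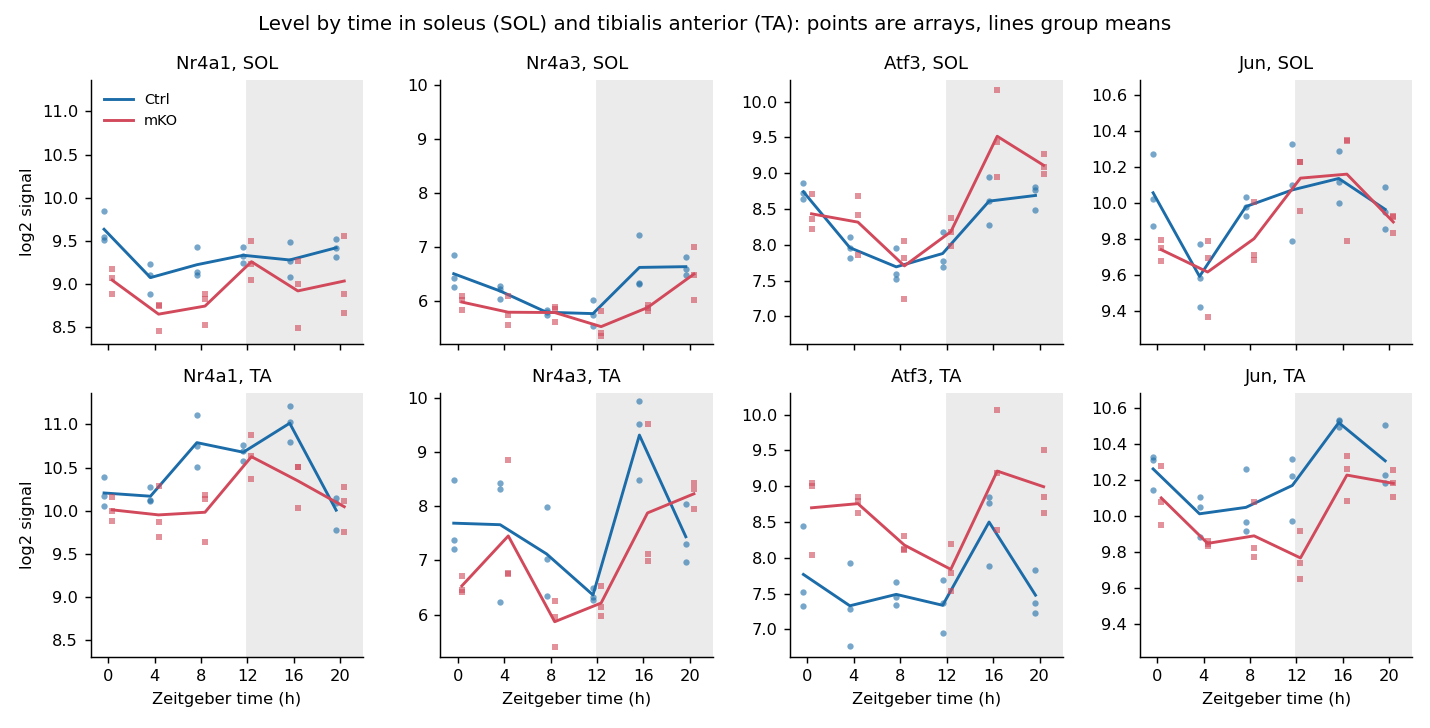
Level (log2 signal) of Nr4a1, Nr4a3, Atf3 and Jun against Zeitgeber time (h) in SOL (top) and TA (bottom). Points are arrays, lines are means of 3 arrays, circles and blue are Ctrl, squares and red are mKO, and grey marks the dark phase. Nr4a3 spreads most in TA, and Atf3 of mKO lies above Ctrl at all 6 times in TA.

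At single times, 3 animals stood against 3. In SOL, 1 difference passed, Atf3 at ZT16, by 0.91 ± 0.23 (limma adjusted p = 0.0495). The Ctrl animals read 8.95, 8.27 and 8.61 and the mKO animals 8.95, 10.16 and 9.44. From ZT0 to ZT20, 0.553%, 0.44%, 0.86%, 0.751%, 0.944% and 1.04% of all genes passed in SOL. The Atf3 call was kept in 8 of 36 fits that left out 1 animal (0.59 to 1.19). With the animal series as a block, BM2 and BM2* joined, the adjusted p of limma was 0.147.

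In TA, 5 differences at single times passed, where 1.63%, 1.67%, 2.03%, 2.52%, 2.02% and 1.99% of all genes did from ZT0 to ZT20. Atf3 was higher in mKO at ZT4 by 1.43 ± 0.35 (limma adjusted p = 0.0271) and at ZT20 by 1.51 ± 0.35 (adjusted p = 0.0146). Nr4a1 was lower at ZT8, with a difference of -0.81 ± 0.18 (adjusted p = 0.00851), and at ZT16, with -0.67 ± 0.18 (adjusted p = 0.0444), and Jun at ZT12, with -0.40 ± 0.11 (adjusted p = 0.0425). The fits that left out 1 animal kept the Atf3 calls in 31 and 33 of 36, the Nr4a1 calls in 34 and 19, and the Jun call in 24. With the animal series as a block, Atf3 at ZT20 did not pass (1.69, adjusted p = 0.0881). Without the array with liver transcripts Nr4a1 at ZT16 had an adjusted p of 0.0502, and the other 4 passed, with adjusted p from 0.0101 to 0.0427. At ZT0 in TA, Ier2 read 5.21, 5.44 and 5.48 in Ctrl and 5.54, 5.84 and 6.24 in mKO, which did not overlap but did not pass (0.49 ± 0.17, adjusted p = 0.167, or 0.41 with adjusted p = 0.534 without the array with liver transcripts).

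Whether a genotype effect differed between the muscles was tested on the difference TA minus SOL within each animal. Atf3 was the 1 member of 10 past the threshold, where 2.71% of all genes passed (1.2% upwards, as Atf3, and 1.52% downwards). The effect of genotype on Atf3 was larger in TA than in SOL by 0.68 ± 0.18 (limma adjusted p = 0.0284). The effects on Nr4a1 differed by 0.07 ± 0.094 (adjusted p = 0.862), those on Nr4a3 by -0.23 ± 0.26 (adjusted p = 0.825) and those on Jun by -0.14 ± 0.065 (adjusted p = 0.37), none past the threshold. The Atf3 difference passed in 26 of 36 fits without 1 animal, with values from 0.56 to 0.74, and the other 10 gave adjusted p from 0.0502 to 0.0578. Without the animal whose TA array held liver transcripts it was 0.65 (adjusted p = 0.0485).

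The muscles were compared within animals. In Ctrl, Nr4a1, Nr4a3, Jun and Fosb were higher in TA and Nr4a2, Egr1 and Atf3 were higher in SOL, 7 of 10 in all, where 42.9% of all genes passed (22.9% higher and 20% lower in TA). In mKO, Nr4a1, Nr4a3 and Jun were higher in TA and Nr4a2 and Egr1 in SOL, 5 of 10, a share near the 48.2% of all genes that passed (27.8% higher and 20.4% lower in TA). The NR4A receptors did not share a direction: Nr4a1 and Nr4a3 were higher in the fast muscle and Nr4a2 in the slow one. Without the animal whose TA array held liver transcripts, the same 7 members passed in Ctrl, with 1.17 for Nr4a1, 1.4 for Nr4a3, 0.26 for Jun and 0.16 for Fosb, and with -0.44 for Nr4a2, -0.57 for Egr1 and -0.58 for Atf3 (adjusted p of limma at most 0.00389).

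Nr4a1 was higher in TA in 18 of 18 Ctrl animals, by between 0.33 and 1.76 with a median of 1.33, and in 18 of 18 mKO animals. The mean difference was 1.15 ± 0.067 in Ctrl (limma adjusted p = 2.06e-15) and 1.22 ± 0.067 in mKO (adjusted p = 4.72e-16), or 2.22- and 2.33-fold. Ordered by mean, Nr4a1 stood at 10.48 in TA of Ctrl, 10.16 in TA of mKO, 9.33 in Ctrl SOL and 8.94 in mKO SOL. The first pair and the last pair of that order differed past the threshold as given above, and the middle pair, of different animals, was not tested.

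Nr4a3 was higher in TA in 18 of 18 Ctrl and 17 of 18 mKO animals, by between 0.17 and 3.60 in Ctrl. The mean difference was 1.33 ± 0.18 in Ctrl (limma adjusted p = 3.68e-07) and 1.11 ± 0.18 in mKO (adjusted p = 7.94e-06). The single exception, an mKO animal, had a difference of -0.50. Nr4a2, the receptor best known from dopamine neurons, was higher in SOL in all 18 animals of each genotype, with TA minus SOL at -0.43 ± 0.043 in Ctrl (adjusted p = 6.03e-10) and -0.40 ± 0.043 in mKO (adjusted p = 2.06e-09). Its animals ran from 6.84 to 7.23 in SOL and from 6.43 to 6.87 in TA of Ctrl, ranges that met only at their ends.

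Among the AP-1 subunits the differences between muscles were small. Jun was higher in TA by 0.25 ± 0.046 in Ctrl (limma adjusted p = 2.84e-05, 15 of 18 animals) and by 0.11 ± 0.046 in mKO (adjusted p = 0.0468, 12 of 18 animals). The mKO value for Jun was lost in 15 of 36 fits without 1 animal. Fosb was higher in TA by 0.15 ± 0.043 in Ctrl (adjusted p = 0.00476) and did not pass in mKO (0.08 ± 0.043, adjusted p = 0.152). Fos, the founding subunit of AP-1, had -0.02 ± 0.068 in Ctrl and 0.07 ± 0.068 in mKO, and Junb had -0.03 and 0.10. Neither passed, and Fos was higher in TA in 8 of 18 Ctrl and 10 of 18 mKO animals.

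Egr1 was higher in SOL in 17 of 18 animals of each genotype, with TA minus SOL at -0.54 ± 0.071 in Ctrl (limma adjusted p = 1.6e-07) and -0.46 ± 0.071 in mKO (adjusted p = 2.22e-06). Atf3 was higher in SOL in 15 of 18 Ctrl animals, with TA minus SOL at -0.61 ± 0.13 (adjusted p = 0.000158), and in 7 of 18 mKO animals, with a mean difference of 0.07 ± 0.13 (adjusted p = 0.682). Ordered by mean, Atf3 stood at 8.61 in mKO TA, 8.54 in mKO SOL, 8.26 in Ctrl SOL and 7.65 in Ctrl TA. Of the neighbours in that order, the last pair differed past the threshold and the first pair and the middle pair did not. Ier2, a short nuclear protein induced by serum, differed by 0.04 in each genotype and did not pass.

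**Figure D3:**
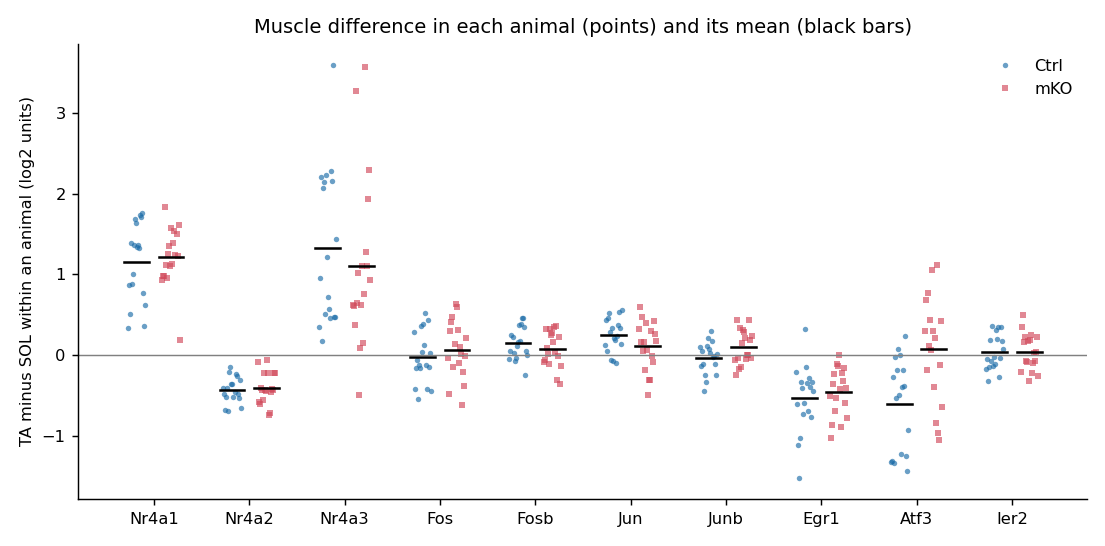
Difference TA minus SOL (log2 units) of each member within each animal, with Ctrl as circles and mKO as squares, 18 animals per genotype, and black bars at the means. Nr4a1 lies above 0 and Nr4a2 below 0 in all 36 animals, while for Atf3 the mean is -0.61 in Ctrl and 0.07 in mKO.

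Daily rhythm was tested as a cosine of 24 h, and its amplitude is how far the peak of the cosine stands above its mean on the log2 scale. Atf3 and Nr4a3 were rhythmic in SOL of Ctrl, 2 of 10 members, where 6.05% of all genes were. In SOL of mKO, Atf3, Jun and Nr4a3 passed, 3 of 10 against 5.68%. In TA of Ctrl, Nr4a1 and Jun passed, 2 of 10 against 2.7%, and in TA of mKO Jun alone, 1 of 10 against 1.76%. Peaks of the rhythmic members fell between ZT12.2 and ZT21.2, in the dark phase, and the animal series also differed between times.

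Atf3 in SOL had an amplitude of 0.59 ± 0.11 and a peak at ZT20.4 in Ctrl (limma adjusted p = 0.00128), and 0.76 ± 0.11 with a peak at ZT18.6 in mKO (adjusted p = 4.45e-05). In Ctrl its means ran from 7.69 at ZT8 to 8.74 at ZT0, and in mKO from 7.71 at ZT8 to 9.52 at ZT16. Nr4a3 in SOL had 0.48 ± 0.091 with a peak at ZT20.7 in Ctrl (adjusted p = 0.00157) and 0.34 ± 0.091 with a peak at ZT21.2 in mKO (adjusted p = 0.0468). Its mKO rhythm was lost in 23 of 36 fits without 1 animal, where the amplitude ran from 0.25 to 0.38. In TA, where Nr4a3 had larger fitted amplitudes, 0.61 in Ctrl and 0.91 in mKO, neither passed (adjusted p = 0.68 and 0.33).

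Nr4a1 in TA of Ctrl had an amplitude of 0.43 ± 0.089 with a peak at ZT12.2 (limma adjusted p = 0.00995, or 0.45 with adjusted p = 0.0148 without the array with liver transcripts). Its mean ran from 10.01 at ZT20 to 11.01 at ZT16. In TA of mKO the amplitude was 0.29 ± 0.089 (adjusted p = 0.2). Jun in TA had 0.22 ± 0.048 with a peak at ZT17.8 in Ctrl (adjusted p = 0.0163) and 0.22 ± 0.048 with a peak at ZT19.8 in mKO (adjusted p = 0.0285). The Ctrl call for Jun was lost without Ctrl ZT16 replicate A or Ctrl ZT4 replicate A (adjusted p = 0.0503 and 0.0539), and the mKO call in 7 of 36 fits. Both held without the array with liver transcripts (adjusted p = 0.0202 and 0.0308). In SOL of mKO Jun had 0.28 ± 0.061 with a peak at ZT14.8 (adjusted p = 0.00973).

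None of the rhythms was shown to differ between genotypes. Limma's test of the difference called 0 of 10 members in SOL, where 0.0395% of all genes passed, and 0 of 10 in TA, where 0.104% passed, and 0 members had an unadjusted p under 0.05 in either muscle. The closest was Atf3 in SOL, with an unadjusted p of 0.0813. Nr4a1 in TA, rhythmic past the threshold in Ctrl alone, had an amplitude difference of -0.14 (mKO minus Ctrl). Limma's test, which takes amplitude and peak time together, did not pass (unadjusted p = 0.287), so a difference was not shown. Arntl, tested the same way, passed in both muscles (adjusted p = 1.33e-05 in SOL and 1.7e-05 in TA).

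Egr1 and Fos did not pass as cosines in any group, and their levels at some times are given as a description. Egr1 in TA of Ctrl read 8.44, 7.43 and 8.38 at ZT0, 7.46, 7.83 and 7.53 at ZT4 and 7.41, 7.32 and 7.56 at ZT8. It then read 7.45, 8.28 and 8.41 at ZT12 and 7.24, 7.04 and 7.35 at ZT16. At ZT0 and at ZT12, 2 of 3 animals read above 8, and 1 of those at ZT0, replicate A, is the array with liver transcripts. The cosine did not pass (limma adjusted p = 0.803), while a test over the 6 time means did (adjusted p = 0.0333). Without that array the test over the time means did not pass (adjusted p = 0.1). In TA of mKO the 6 means lay between 7.56 and 7.69. Fos in SOL had amplitudes of 0.25 in each genotype, which did not pass (adjusted p = 0.0691 in Ctrl and 0.0636 in mKO). In Ctrl its animals read 6.92, 6.86 and 6.93 at ZT0 and 6.36, 6.23 and 6.34 at ZT8. These were the times with the highest and the lowest mean, so the gap between them is not a test.

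**Figure D4:**
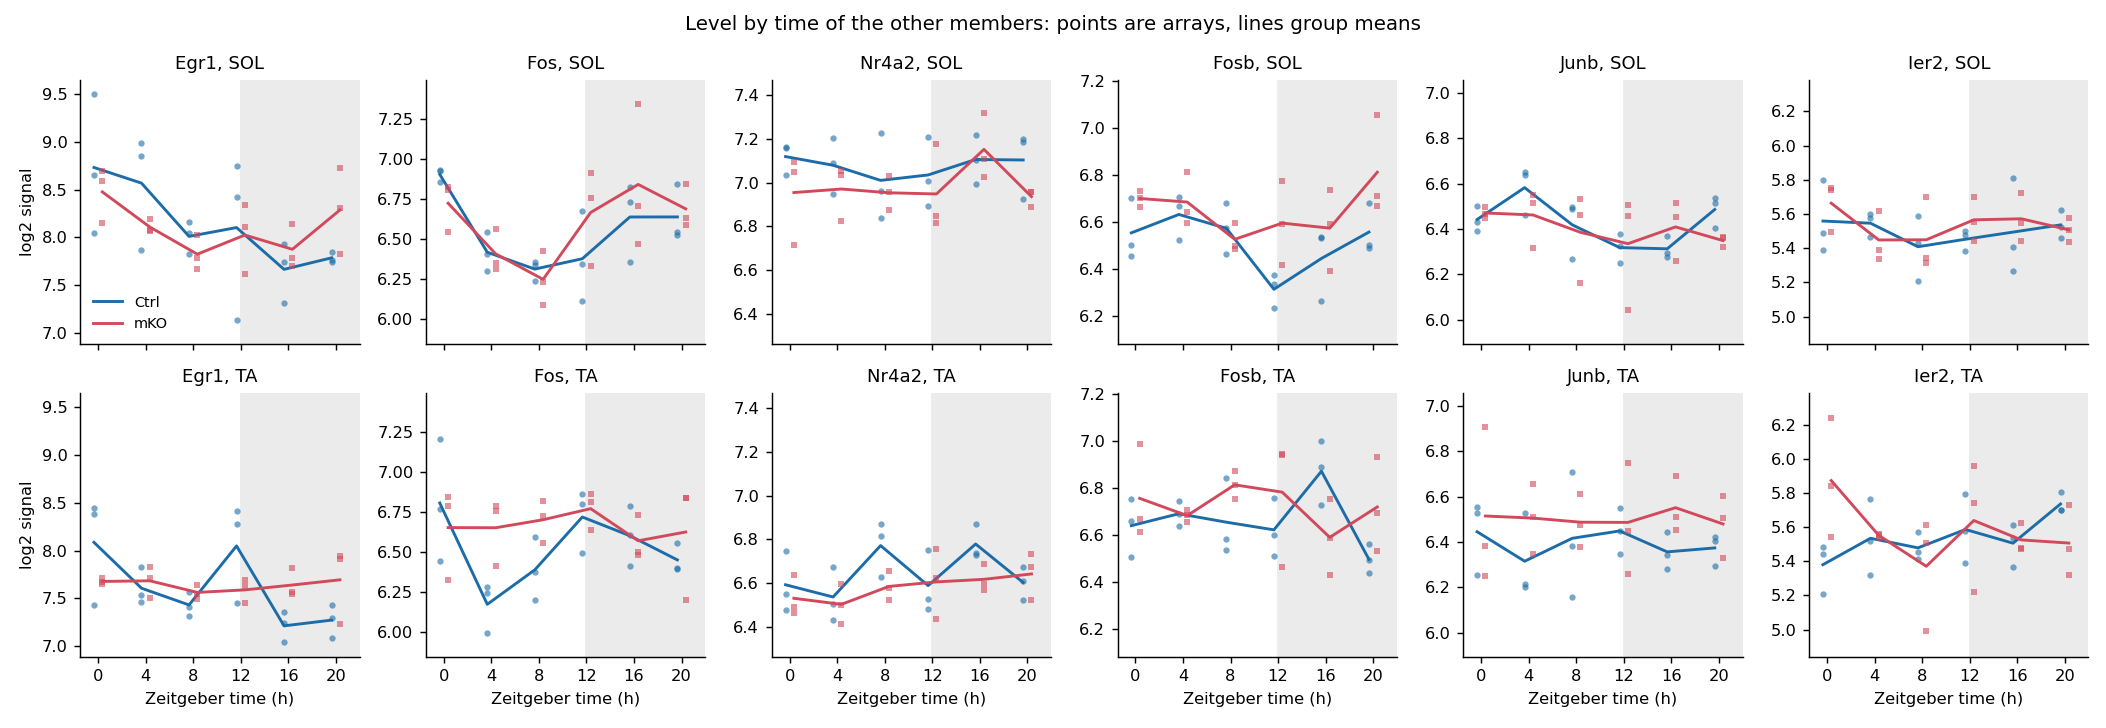
Level (log2 signal) of Egr1, Fos, Nr4a2, Fosb, Junb and Ier2 against Zeitgeber time (h) in SOL (top) and TA (bottom), drawn as arrays (points) and means of 3 arrays (lines), with Ctrl in blue circles, mKO in red squares and the dark phase in grey. The vertical scale differs between genes. Egr1 of Ctrl in TA has means of 8.09 at ZT0 and 8.05 at ZT12 and 7.43 at ZT8.

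Beyond genotype and time, members varied between animals, and this was followed through each animal's deviation from its group mean. Egr1 had the largest correlation between SOL and TA of the same animal (r = 0.68, Spearman rho = 0.51, n = 36, permutation within groups p = 0.0142 for r and 0.023 for rho). After adjustment over the 10 members it did not pass (adjusted p = 0.142 and 0.23). It was 0.62 without the 2 animals farthest from the median, 0.52 among the 23 BM3 animals, 0.85 among the 13 others and 0.74 without the animal whose TA array held liver transcripts (n = 35, permutation p = 0.0147, adjusted p = 0.147). At ZT0 the Ctrl animals read 8.65, 8.04 and 9.50 in SOL and 8.44, 7.43 and 8.38 in TA, so replicate B was lowest in both. At ZT12 replicate A was lowest in both, with 7.14 in SOL and 7.45 in TA, against 8.43 and 8.75, and 8.28 and 8.41. The other 9 members had r between -0.12 and 0.29, and Nr4a3, the most scattered in TA, had -0.12.

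Pairs of members within a muscle were compared in the same way, 45 pairs in each of the 2 muscles. The permutation test called 0 of the 90 after adjustment, and 8 had an unadjusted p under 0.05, all with r above 0. In TA, Nr4a3 and Atf3 had r = 0.61 (rho = 0.56, n = 36, permutation p = 0.00188, adjusted p = 0.114), 0.66 among BM3 animals and 0.49 among the others. Fos and Egr1 had 0.67 (rho = 0.59, permutation p = 0.00255), and Nr4a1 and Jun 0.53 (rho = 0.51, permutation p = 0.00447). In SOL, Nr4a1 and Nr4a3 had 0.58 (rho = 0.52, permutation p = 0.00507). These adjusted p-values were 0.114 as well. Without the 2 farthest animals the 4 values were 0.62, 0.53, 0.47 and 0.56, and without the animal whose TA array held liver transcripts 0.61, 0.62, 0.54 and 0.55. At ZT16 in TA of mKO, replicate A was the highest animal both in Nr4a3 (9.52 against 7.11 and 6.99) and in Atf3 (10.07 against 9.19 and 8.38).

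Over all 72 arrays, the 3 genes whose deviations from the group means were most like those of a member are given by their Pearson r, as a description. For Atf3 they were Xirp1, which encodes an actin-binding protein of muscle (r = 0.79), Rnf115, which encodes a ubiquitin ligase (0.70), and Rcan1, which encodes a calcineurin inhibitor (0.67). For Nr4a3 they were Tle3 (0.54), which encodes a corepressor, Abra (0.51), which encodes a muscle activator of SRF signalling, and Ednrb (0.50), which encodes an endothelin receptor. For Nr4a1 they were the phosphate transporter gene Slc20a1 (0.66), Zfp512 (0.55) and the amino acid transporter gene Slc38a2 (0.51). For Jun they were Tob1 (0.62), Xpnpep1 (0.61) and Perm1 (0.59), a regulator of muscle energy metabolism. For Egr1 they were the adhesion gene Cdh2 (0.57), the collagen gene Col12a1 (0.53) and the protease gene Ctsk (0.51). For Nr4a2 they were Ston2 (0.52), Gpr52 (0.52) and the olfactory receptor gene Olfr486 (0.51), and for Fos the olfactory receptor gene Olfr747 (0.59), Cyp2c68 (0.44) and Inhbc (0.44). For Fosb they were Egfem1 (0.70), the kinase gene Pak7 (0.65) and a gene model (0.64), and for Junb Jsrp1 (0.65), the peptide hormone gene Ucn (0.62) and Tusc1 (0.60). For Ier2 they were 2 gene models (0.62 and 0.58) and Vill (0.57). These points share the arrays and their scaling, the array with liver transcripts among them, and the correlations were not repeated without it. On that array Fos read 7.21, against 6.44 and 6.77 on the other arrays of its group.

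Of 38 other immediate early genes measured, knockout went with 1 higher and 4 lower in SOL, where 7.1% of all genes passed, and 2 higher and 7 lower in TA, where 14.8% did. Rgs2, an inducible brake on G protein signalling, rose in both muscles, with 0.63 ± 0.072 in SOL and 1.08 ± 0.081 in TA (limma adjusted p = 1.32e-07 and 1.81e-11). The genes that fell most clearly were Ier3 (-0.46), Trib1 (-0.21) and Ier5 (-0.19) in SOL and the clock gene Per1 (-0.67), Trib1 (-0.41) and Errfi1 (-0.34) in TA. The median over this list was 0.00 in SOL and -0.01 in TA, beside 0.00 and 0.02 over all genes. A 24 h rhythm was called in 14 of the 38 in SOL of Ctrl, 17 in SOL of mKO, 16 in TA of Ctrl and 13 in TA of mKO, led by Per1 and Rgs2 in SOL and by Per1 in TA. Of all genes, 6.05%, 5.68%, 2.7% and 1.76% passed in these groups.

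Inputs and partners of the members were counted in the same way. Of all genes, 7.1% passed the threshold in SOL (3.54% lower) and 14.8% in TA (8.06% lower). Of 14 CREB and SRF inputs, 2 were lower in SOL of mKO (Mef2c, -0.19, and Creb1, -0.10) and 5 in TA, among them Mef2a (-0.16), Mef2c (-0.15) and Srf itself (-0.14). Of 13 partners of AP-1 and ATF proteins, 1 was lower in SOL (Maf, -0.29) and 4 in TA, among them Nfe2l2 (-0.21), Atf6 (-0.20) and Maf (-0.19). Of the 3 retinoid X receptors, with which Nr4a1 and Nr4a2 can pair, none passed in SOL by limma (1 had an unadjusted p under 0.05), and in TA Rxrg differed by 0.11 and Rxra by -0.17, both past the threshold.

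Atf3 is also a gene of the integrated stress response, and most other genes of that response that passed were lower in mKO. Of 13 measured, 3 were lower in SOL of mKO and none higher, where 3.54% of all genes were lower and 3.56% higher, and in TA 5 were lower and 1 higher, where 8.06% and 6.76% were. The median over this list was -0.09 in SOL and -0.02 in TA. Chac1, which encodes a glutathione-degrading enzyme, fell by 0.57 ± 0.15 in SOL and by 1.07 ± 0.17 in TA (limma adjusted p = 0.0158 and 2.06e-05). Ddit3, which encodes the factor CHOP, fell by 0.22 in SOL and 0.36 in TA. Mthfd2, a mitochondrial folate enzyme gene, was the 1 that rose, by 0.14 in TA. This list was also chosen with earlier results known, and the part of this response in the Atf3 difference was not tested.

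NR4A receptors are known to induce several genes of glucose and glycogen use. Of 10 measured, 5 were lower in mKO in SOL and 6 in TA and none higher, where 3.54% and 8.06% of all genes were lower, with medians of -0.13 and -0.14 beside 0.00 and 0.02 over all genes. Hk2, the hexokinase of muscle, fell by 0.28 ± 0.040 in SOL and 0.51 ± 0.054 in TA (limma adjusted p = 7.94e-06 and 2.05e-08). Pfkm, which encodes phosphofructokinase, fell by 0.20 and 0.21, and Fbp2, the muscle fructose bisphosphatase, by 0.58 in TA. This list was chosen with earlier results of these data known, and a link to the NR4A receptors was not tested.

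Markers of 10 other cell types and tissues were read beside these results. Of 58 marker genes measured, 2 were higher and 2 lower in SOL of mKO and 1 higher and 3 lower in TA. Of all genes, 7.1% passed in SOL and 14.8% in TA. The mean levels of each list overlapped between genotypes, for instance with macrophage markers at 6.65 to 7.65 in TA of Ctrl and 6.38 to 7.33 in TA of mKO, and endothelial markers at 8.87 to 9.27 and 8.90 to 9.16. Between muscles 4 were higher and 22 lower in TA of Ctrl, where 22.9% of all genes were higher and 20% lower. The adipocyte markers had medians of 7.94 in SOL and 7.20 in TA of Ctrl. Fibre type markers were read as well. Of 8 slow fibre markers, 4 were lower in SOL of mKO, among them Tpm3 (-0.20), Myh7 (-0.11) and Tnnc1 (-0.11), and 1 was higher in TA (Myl3, 0.44). Of 9 fast fibre markers, Mylpf was higher in both muscles (0.42 in SOL and 0.27 in TA) and Myl1 lower in SOL (-0.17). Among all genes, 3.56% were higher and 3.54% lower in SOL of mKO, and 6.76% and 8.06% in TA. The part of these markers in the differences of the members between genotypes or muscles was not tested.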

How the data were processed

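Total RNA of SOL and TA was hybridised to whole-transcript arrays, 1 per muscle and animal, 72 in all. The deposited values are log2 signals per probe set that the authors made with RMA, per the submitters' processing notes (version and probe annotation not given in the sources used here). They were used unchanged: of 21225 probe sets, 20239 with 1 gene symbol were tested and 986 without a listed gene were not used. RMA pulls arrays to a common distribution and compresses differences of dim probe sets.

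Groups came from the labels. Genotype effects were tested per muscle with limma 3.58.1 in R 4.3.3, with a mean for each genotype and time, muscle differences on TA minus SOL within animals, and rhythm as a cosine and sine of 24 h by the moderated F test. The Benjamini-Hochberg adjustment ran over all 20239 genes, with a threshold of 0.05. Correlations were permuted within groups (100000 draws). Scripts were tested on simulated data. Promoters were searched as letters with Python 3.11.15.

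The members and the lists, with 183 further genes of which 166 were measured, were chosen with earlier results of these data known. All members are named. From each list up to 3 genes per direction and comparison are named, those with the smallest p, and for each member the 3 most similar genes. Genes known only by a model name are not named. Marker lists covered fibre types, vessels, smooth muscle, connective tissue, immune and red blood cells, satellite cells, fat, Schwann cells and liver. Replicate letters are shared by both muscles of an animal, which the labels state. No label pairs the letters between genotypes. Alternatives were other scalings, a filter on dim genes, another variance model, array weights, the animal series or the replicate as a block, and leaving out each animal in turn. The block of animal series set BM3 against BM2 and BM2* joined, so it did not adjust for BM2 against BM2*. The time-means test and the correlations without the animal with liver transcripts were added after seeing the data. The replicates are separate animals, and their number limits the precision.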

Additional observations from a re-analysis of the deposited data

Results flagged for a closer look

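The effect of genotype on Atf3 differed between the muscles, by limma's test of the difference itself. It was larger in TA than in SOL by 0.68 ± 0.18 (log2 scale with SE, 18 mKO and 18 Ctrl animals, adjusted p of limma = 0.0284). In TA the effect was 0.96 and in SOL 0.28. Within animals, Atf3 was higher in SOL in 15 of 18 Ctrl and 7 of 18 mKO animals. The value kept its direction in every fit without 1 animal, from 0.56 to 0.74. It no longer passed without replicate A of Ctrl at ZT4 (0.62), without replicate B of Ctrl at ZT0 (0.65), ZT12 (0.62), ZT16 (0.66) or ZT20 (0.66), without replicate A of mKO at ZT4 (0.65), or without replicate B of mKO at ZT0 (0.65), ZT8 (0.63), ZT12 (0.63) or ZT20 (0.64). Without the animal whose TA array held liver transcripts it was 0.65 (adjusted p = 0.0485). It passed under all 7 other alternatives, with values between 0.67 and 0.70.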

How the results depend on the processing

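The calls of Nr4a1 and Nr4a3 in SOL and of Atf3, Nr4a1 and Jun in TA held in 36 of 36 fits without 1 animal. No called value changed direction in any alternative run. The numbers of members past the threshold that moved by over 1.5 times were as follows. With array weights, genotype effects in SOL went from 2 to 4 and single times in SOL from 1 to 2. With arrays centred on their medians, single times in SOL and the rhythm in TA of mKO both fell to 0, and single times in SOL also fell to 0 with the trended and robust variance. With limma's F test over the 6 time means, the rhythm count in SOL of mKO was 1 and in TA of mKO 0. Among BM2 and BM2* animals alone, genotype effects numbered 0 in both muscles, with 13 animals over fewer times, at unchanged signs of the 5 called values. Smaller moves were as follows. With array weights, genotype effects in TA went from 3 to 4, single times in TA from 5 to 7, and the rhythm counts in SOL from 2 to 3 in Ctrl and from 3 to 4 in mKO. Genotype effects in TA numbered 2 among BM3 animals alone. Single times in TA numbered 4 under both scalings and with either block, and the rhythm count in SOL of mKO was 2 under both scalings, either block, the filter on dim genes and the trended and robust variance. The filter left Nr4a3 in SOL untested. With that filter, the muscle difference in Ctrl went from 7 to 5, because Nr4a3 and Fosb fell below it and were not tested. In mKO it went from 5 to 4 with the filter, where Nr4a3 was not tested. The mKO count was also 4 with both scalings, the animal series as a block and the unpaired fit. Leaving out 1 animal gave 2 to 4 members for genotype effects in SOL, 3 to 4 in TA, 0 to 1 and 2 to 5 for single times in SOL and TA, and 0 to 1 for the interaction. It gave 2 to 4, 2 to 3, 1 to 2 and 0 to 1 for the rhythms in Ctrl SOL, mKO SOL, Ctrl TA and mKO TA, and 7 and 4 to 6 for the muscle difference in Ctrl and mKO.

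With the replicate letter as a block (replicate block), genotype effects stayed at 2 members in SOL and 3 in TA, while single times in SOL fell to 0. Same-lettered Ctrl and mKO arrays had a median correlation of 0.15 (from -0.28 to 0.32), over 0.1 in 21 of 36 pairs. SOL and TA arrays of the same animal, which the labels pair, had a median of 0.046, over 0.1 in 11 of 36, so this check does not settle whether the letters pair genotypes. Both scalings shifted the median of all genes by under 0.1.

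The call of Atf3 at ZT16 in SOL held in 3 of 7 alternatives and that of Nr4a1 at ZT16 in TA in 5 of 7. The rhythm of Nr4a3 in SOL of mKO held in 1 of 7, and the muscle difference of Jun in mKO in 4 of 8. The causes were not tested. The Egr1 test over the 6 time means in TA of Ctrl (0.0333) had an adjusted p of 0.1 without the array with liver transcripts, an alternative chosen after seeing the data. The rhythm of Jun in TA of mKO no longer passed without mKO ZT4 replicate B (0.21), ZT8 replicates A (0.22) or C (0.21), ZT16 replicates B (0.20) or C (0.21), or ZT20 replicates A (0.21) or B (0.22).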

Other observations

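Rxrg, the retinoid X receptor enriched in skeletal muscle, was the gene among the listed partners whose daily rhythm differed between genotypes in SOL. Its amplitude there fell by 0.29 log2 units in mKO (limma adjusted p of the rhythm difference = 0.00062), from 0.38 in Ctrl. In TA the Ctrl amplitude was 0.22. Between muscles Rxrg was higher in TA by 1.49 in Ctrl and 1.52 in mKO. Among the other immediate early genes, Per1 differed in rhythm between genotypes in TA, where the amplitude was 1.27 in Ctrl and 0.78 in mKO (adjusted p of the difference = 0.001).

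Other inducible genes also differed between slow and fast muscle. Of 38 measured, 6 were higher and 19 lower in TA of Ctrl, where 22.9% of all genes were higher and 20% lower. The growth arrest genes Gadd45b (1.32), Gadd45g (0.90) and Gadd45a (0.69) were higher in TA. The mRNA decay factor gene Zfp36l1 (-1.22), the antiproliferative gene Btg2 (-0.93) and the kinase gene Sik1 (-0.87) were higher in SOL.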
